A study of Homo sapiens with 6 samples.

Results

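Solute carrier (SLC) genes were read out through their AGO2-crosslinked RNA regions (peaks) in 22RV1, an established human prostate cancer cell line. Members were all peaks whose gene name begins with SLC and a digit: 183 of the 7772 deposited peaks, from 84 gene names in 36 numbered subfamilies. The cells had received either a mimic of the microRNA miR-194 (3 libraries) or a negative control (3 libraries), each at 20 nM, in suspension, and were crosslinked with ultraviolet light 24 h later. RNA bound by AGO2 was recovered with the antibody 4F9. By the labels each immunoprecipitation used the cells of 1 plate, and whether plates of a group were grown and transfected apart from each other is not said. Every peak has 1 score from the authors, a whole number that no source used here defines. No value belongs to a single library or to the mimic or control cells. Depth is therefore unknown, mimic-treated cells cannot be told from control cells, and SLC peaks were set beside all peaks without a test.

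SLC proteins are membrane transporters that carry amino acids, sugars, metals, vitamins, nucleotides and metabolites across the plasma membrane and the membranes of organelles. A microRNA held by AGO2 finds its targets mainly through its seed, the bases near its 5' end, and pairing in a 3' UTR usually lowers the amount or the translation of the messenger RNA. Prostate epithelium is known for its handling of zinc and citrate, and prostate cancer cells for a strong demand for glutamine and leucine.

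The sequences that carry the results are the microRNA and listed sites in high-scoring SLC peaks. The mature microRNA (RefSeq, GRCh38.p14) has its seed, bases 2 to 8, in capitals.
hsa-miR-194-5p: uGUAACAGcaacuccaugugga
The seed pairs with CTGTTAC, and an 8mer adds an A after it (CTGTTACA). A 7mer-m8 holds CTGTTAC without that A, a 7mer-A1 holds TGTTACA, a 6mer holds TGTTAC, and a variant lacks the 6mer. A match means an 8mer or either 7mer on the strand of the peak. The 30-base windows below come from GENCODE 29 transcripts matched by RefSeq accession, with bases that match the 8mer in capitals for variants and the paired stretch in capitals for the others. They are shown because they lie in high-scoring peaks with a match and in the 2 peaks of highest score, which have none.
SLC7A5, 3' UTR, 8mer: tattctgtgttaatggctaacCTGTTACAc
SLC30A9, coding, first 7mer-A1: aagtagattttgatgggcgagtTGTTACAa
SLC30A9, coding, second 7mer-A1: gaaaaacaagattttgaccaaaTGTTACAa
SLC29A1, coding, 7mer-m8: tgttatcattttgaccatcatCTGTTACct
SLC7A11, 3' UTR, 8mer: acggttacagtgtcctaatagCTGTTACAt
SLC39A6, 3' UTR, 8mer: ttttgtattgaatattgctgtCTGTTACAa
SLC38A2, 3' UTR, variant: tactgtcttccgtggatgtttCaGTTACAa
SLC25A3, coding, variant: agggcatatttaacggattctCaGTTACAc

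A match was listed in 29 of the 183 SLC peaks (15.8%, exact Clopper-Pearson 95% interval 10.9 to 22.0%), against 13.4% of all peaks. The share for the full table lies inside the SLC interval. By gene, 25 of 84 SLC names had at least 1 peak with a match (29.8%, 20.3 to 40.7%), against 23.6% of all genes with a peak. The best site was an 8mer in 8 peaks (4.37%, against 4.16% of all peaks) and a 7mer-m8 in 8 (4.37%, against 3.80%). It was a 7mer-A1 in 13 (7.10%, against 5.40%), a 6mer in 8 (4.37%, against 3.44%) and a variant in 6 (3.28%, against 2.62%). No site was listed in 140 peaks (76.5%, against 80.6%). Any listed site was present in 43 peaks (23.5%), against 19.4% of all peaks. A match on the opposite strand was listed in 0 of the 183 peaks and in 0 of all 7772, although 60 of all peaks listed another site on that strand. The 0 is therefore shared by the full table and tells nothing about SLC peaks. Intervals cover counting error only, and peaks of 1 gene are not independent.

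The class with the most SLC peaks was the 3' UTR, with 79 of 183 (43.2%, 35.9 to 50.7%), against 23.0% in the full table. Of these 79 peaks SLC38A2 supplied 12 and SLC39A6 7. The full table also holds peaks without a gene name (7117 of 7772 have one), which could not be SLC peaks. Coding exons held 42 (23.0%, against 33.0%), introns 25 (13.7%, against 20.4%) and transcript ends 18 (9.84%, against 5.37%). Within classes the share with a match was 15 of 79 in 3' UTRs (19.0%, against 19.8% of all 3' UTR peaks). It was 9 of 42 in coding exons (21.4%, 10.3 to 36.8%, against 15.0%), 2 of 25 in introns (8.00%, against 4.61%) and 2 of 18 at transcript ends (11.1%, 1.38 to 34.7%, against 20.4%). In these 4 classes the share over all peaks fell within the SLC interval. The table's site search used different patterns in 3' UTRs, introns and other classes, so shares are best read within a class.

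**Figure D1:**
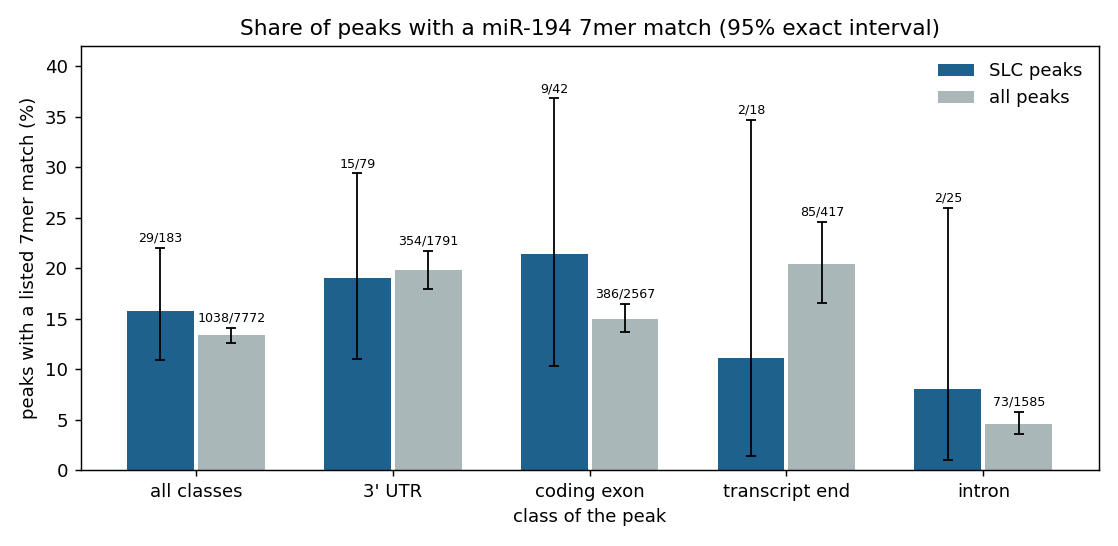
Share of peaks with a listed miR-194 7mer match (percent, y axis) by class of the peak (x axis), for SLC peaks (blue) and for all peaks (grey), with counts above the bars and exact 95% intervals as error bars. The SLC share was 15.8% over all classes and 21.4% in coding exons, and each SLC interval is wide enough to hold the share of all peaks.

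Scores of SLC peaks ran from 5 to 745 with a median of 19 (quartiles 13 and 38), and the median over all peaks was 15 (12 and 23). A score of at least 100 was reached by 19 SLC peaks (10.4%, 6.37 to 15.7%), against 4.19% of all peaks. These 19 peaks came from few genes: SLC38A2 alone supplied 7 of them. Of the 19, 6 had a match (31.6%, 12.6 to 56.6%), against 47.9% of all peaks scoring that high. Any listed site was present in 11 of them (57.9%), against 66.0%. SLC peaks were longer than the table's peaks, with medians of 77 and 67 nt.

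Some peaks carry an SLC name that does not describe their transcript. By GENCODE gene strand, 10 of the 183 peaks, from 7 names, lay on the strand opposite to the gene, with scores of 5 to 49. These were all the peaks of SLC2A6, SLC15A3, SLC48A1, SLC52A1, SLC52A2, SLC5A2 and SLC25A30-AS1, at transcript ends, starts or a non-coding exon. The SLC25A30-AS1 peaks lay on the minus strand, the strand of SLC25A30 itself, and 1 of them held a 7mer-A1 (score 27). Another 2 names are not transporters: SLC2A4RG, a transcription regulator (score 10), and SLC9A3R2, now NHERF2, a scaffold protein (score 13). All 8 peaks called non-coding in the coding genes SLC16A7, SLC22A23, SLC25A13, SLC25A17, SLC25A32 and SLC29A2 were assigned to a non-coding RefSeq variant of that gene. Without the opposite-strand peaks the share with a match was 16.2%.

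Peaks also split continuous stretches. Of the 183 SLC peaks 56 began within 5 nt of the preceding peak of their gene (30.6%, 24.0 to 37.8%), against 16.5% of all peaks with a gene name. Joining such neighbours gave 127 SLC blocks. Counting blocks, 28 of 127 had a match (22.0%), against 16.2% of the 5946 blocks formed in the same way from all peaks with a gene name. A gene's number of peaks therefore counts segments of such stretches as well as separate ones.

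Carriers were grouped by subfamily number, so the cargo of a single gene can differ from that of its group. Amino acid carriers (15 genes of SLC1, SLC6, SLC7, SLC36 and SLC38) had 46 peaks, 30 of them in 3' UTRs, with a median score of 29. That level rested on 1 gene, SLC38A2: the other 32 peaks had a median of 17.5 and a highest score of 293. A match was listed in 5 of the 46 peaks, from 4 genes (10.9%, 3.62 to 23.6%), near the 13.4% of all peaks.

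SLC38A2, which encodes the sodium-coupled neutral amino acid transporter SNAT2, had 14 peaks, the most of any SLC gene, and its highest scored 745, rank 7 in the table. Its 12 3' UTR peaks scored from 34 to 745 with a median of 123 and covered 1652 of 1850 nt on chromosome 12 from 46752387 to 46754236 (hg19, minus strand, exon 16 of 16). The other 2 lay in intron 1 and scored 9 and 12. None of the 14 peaks had a match. The peak of 745 (46752539 to 46752763) listed the variant shown above, and the peak of 371 listed a 6mer. The peak of 494 (46752887 to 46753215) had no listed site. The longest GENCODE 3' UTR of SLC38A2, 3768 nt, contained no miR-194 7mer at all.

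SLC7A5 encodes LAT1, the leucine importer that pairs with the SLC3A2 heavy chain. Its 5 peaks, with gaps of 2 to 4 nt, formed 1 block that covered 640 of 651 nt on chromosome 16 (87863640 to 87864290, minus strand). Along the transcript the scores were 53, 41, 29, 90 and 293, and the last peak held the only match, an 8mer. That peak is annotated as a transcript end, but its site lies at base 2866 of the 2947-nt GENCODE 3' UTR. SLC3A2 itself, chosen with its values known, had no peak.

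SLC7A11 encodes xCT, which imports cystine in exchange for glutamate. Its 3 3' UTR peaks scored 159, 38 and 32 on chromosome 4. The highest (139087800 to 139088017, minus strand) was the only SLC peak with 3 listed sites: a 7mer-m8, then a variant 32 nt downstream, then an 8mer 52 nt downstream of the first. SLC7A1 (CAT1, an arginine importer) had 3' UTR peaks of 155 and 29, of which the higher held a 6mer, and its longest GENCODE 3' UTR (5070 nt) has no 7mer. SLC7A6, another exchanger of cationic and neutral amino acids, had matches in both of its 3' UTR peaks, a 7mer-m8 at 45 and an 8mer at 21, with the sites 185 nt apart. It was the only SLC7 gene with a match in more than 1 peak.

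The remaining amino acid carriers scored low. SLC38A1 (SNAT1) had a single 3' UTR peak of 37 with a 6mer. SLC6A8, the creatine transporter, had 5 peaks between 10 and 18 and no match, and SLC6A15 had 1 peak of 18. SLC38A10 had 4 peaks from 5 to 16, and its 7mer-m8 lay in the lowest. SLC36A1 and SLC1A4, which transport small neutral amino acids, had 2 3' UTR peaks each, at 15 and 16 and at 16 and 19, without a site.

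**Figure D2:**
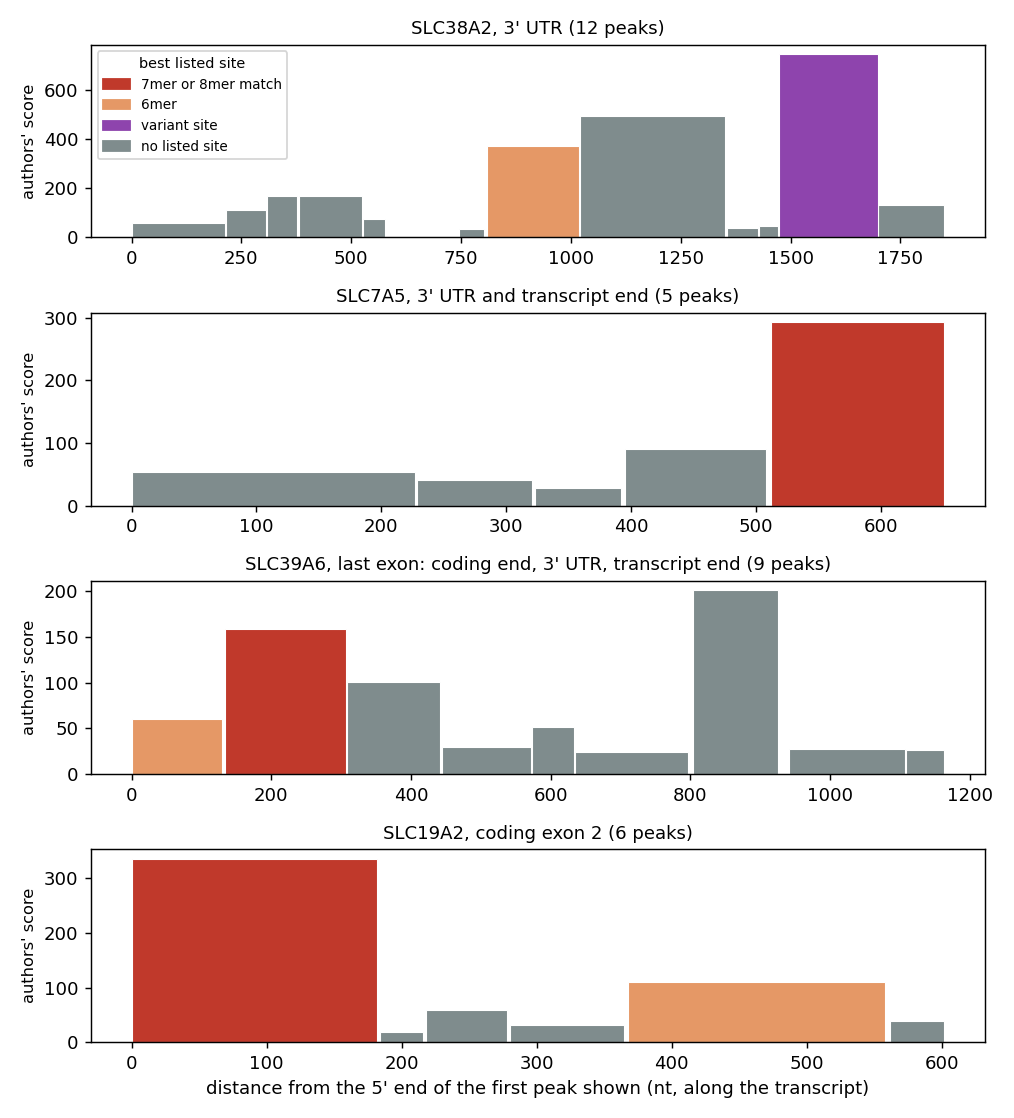
Peaks drawn to scale along the transcript for SLC38A2, SLC7A5, SLC39A6 and SLC19A2 (x axis, distance in nt from the 5' end of the first peak shown; y axis, the authors' score), coloured by the best listed site. The match marks the highest peak in SLC7A5 (293) and SLC19A2 (336), the second highest in SLC39A6 (159 against 201), and none in SLC38A2.

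Among the metal ion carriers (12 genes, 29 peaks, median 24) 3 genes had a match in 1 peak each. These were 10.3% of the group's peaks (2.19 to 27.4%), near the 13.4% of all peaks. Of all genes with a peak, 23.6% had a match. SLC39A6 encodes ZIP6, a zinc importer of epithelial cells. Its 9 peaks tiled 1164 nt of the last exon on chromosome 18 from 33688532 to 33689695 (minus strand), with scores from 24 to 201 and a median of 51. Its 8mer lay at base 135 of the 1061-nt 3' UTR, in the peak scoring 159 (33689389 to 33689561). Its highest peak, 201 (33688770 to 33688891), listed no site, and the coding end of the exon had a peak of 60 with a 6mer. In this gene, then, the highest peak was not the one with a match.

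SLC30A9 (ZnT9, a zinc carrier of mitochondria) had 1 peak of 187 in coding exon 16 of 18, on chromosome 4 from 42077689 to 42077803. It held 2 7mer-A1 sites 41 nt apart, whereas its other peak, in exon 17, scored 12 without a site. SLC11A2 encodes DMT1, the main importer of iron and other divalent metals. It had no listed site in any of its 3 peaks, although the peak in exon 7 of 15 scored 182 and that in exon 4 scored 64. SLC30A7 (ZnT7, which loads zinc into the Golgi) had 3' UTR peaks of 78 and 7, both without a site. SLC30A1, the zinc exporter of the plasma membrane, had a 3' UTR peak of 27 with a 7mer-A1 and an adjoining peak of 32 with a 6mer 99 nt further on. SLC39A1 (ZIP1), a prostate zinc importer named here after its values were seen, had no peak.

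Carriers of vitamins, nucleosides, lipids and organic ions (17 genes, 38 peaks, median 19.5) included the highest SLC peak with a match. SLC19A2 encodes the thiamine transporter THTR1. Of its 7 peaks 6 tiled 602 nt of coding exon 2 of 6 as 1 block (chromosome 1, 169446394 to 169446995, minus strand). Along the transcript these scored 336, 18, 59, 32, 110 and 38. The 7mer-A1 lay in the peak of 336 at coding base 326, and a 6mer in the peak of 110 lay 384 nt downstream. The seventh peak, in the 5' UTR, scored 22. SLC19A1, the folate carrier of the same subfamily, had 1 intron peak of 11.

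SLC29A1 encodes the nucleoside transporter ENT1. Its coding exon peak of 177 (chromosome 6, 44198324 to 44198408, exon 8 of 14) held a 7mer-m8, and its 2 other peaks scored 26 and 12 without a site. SLC29A2 (ENT2) had 3 peaks of 29, 34 and 38, none with a site. SLC10A7, a Golgi protein of the bile acid carrier family, had a match in 3 of its 5 peaks, the most of any SLC gene: an 8mer at 43 and a 7mer-A1 at 22 in the 3' UTR, and a 7mer-A1 at 17 in a peak annotated to an intron. SLC44A4 led its choline-like subfamily with peaks of 20 and 7 and no site.

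The mitochondrial carrier family SLC25 (10 genes, 14 peaks, median 20) had 1 very high peak and otherwise low ones. Genes were placed here by subfamily number, and not every member need be mitochondrial. SLC25A3 encodes the carrier that brings phosphate into the matrix for ATP synthesis. Its peak of 636, rank 10 in the table, lay in exon 4 of 8 on chromosome 12 from 98991635 to 98991782 (plus strand) with the variant shown above. The adjoining peak scored 39. The next in score were SLC25A17 (50, no site), SLC25A13 (48, 6mer) and SLC25A30 (45, a 7mer-A1 and the only match of the group). The share with a match was 7.14% (0.181 to 33.9%), against 13.4% of all peaks. SLC25A4, the adenine nucleotide translocator, scored 13 and 9. Near-identical copies of such carriers could share reads, and no source used here says how these were assigned.

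Carriers of sugars, monocarboxylates and nucleotide sugars (17 genes, 38 peaks) reached no score above 71 and had a median of 16. A match was listed in 10 peaks (26.3%, 13.4 to 43.1%) from 9 genes, beside 13.4% of all peaks. With 38 peaks, several of them from the same gene, and no test, nothing particular to these carriers can be read from that share. Subfamily SLC35, which includes the nucleotide sugar carriers that feed glycosylation in the Golgi, had 11 peaks in 6 genes. SLC35B4 (8mer, 70), SLC35E3 (7mer-m8, 69) and SLC35A3 (7mer-A1, 53) each had their match in the highest or only 3' UTR peak. SLC35A2, the UDP-galactose carrier, had 4 3' UTR peaks of 8, 10, 14 and 38, with a 6mer in the highest.

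SLC45A3 (prostein), a gene of prostate epithelium, had 3 3' UTR peaks of 71, 20 and 18 and no listed site, although its GENCODE 3' UTR holds 1 miR-194 7mer. SLC45A4 had 5 peaks from 9 to 16, and the match lay in a coding peak of 13. SLC37A3 had an 8mer in its coding peak of 47 (exon 12 of 15). SLC16A1 encodes the lactate carrier MCT1. Its 5 peaks scored 6 to 27, and the matches were a 7mer-A1 in the 3' UTR peak of 27 and another in an intron peak of 15. SLC5A3, the myo-inositol carrier, had a 7mer-m8 in its highest 3' UTR peak (25). The multivitamin carrier SLC5A6, placed in this group by its subfamily number, had one in a coding peak of 25. SLC2A1, the glucose transporter GLUT1, had 1 peak of 15 with a 7mer-m8.

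Inorganic ion carriers (9 genes, 12 peaks) scored between 11 and 28. SLC20A1, a phosphate importer, had the highest, in its 5' UTR, without a site. Matches were listed in SLC26A2, the sulfate carrier (24, 7mer-A1), and SLC8A1, a sodium-calcium exchanger (13, 8mer), both in 3' UTRs. These were 16.7% of the group's peaks (2.09 to 48.4%), near the 13.4% of all peaks.

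**Figure D3:**
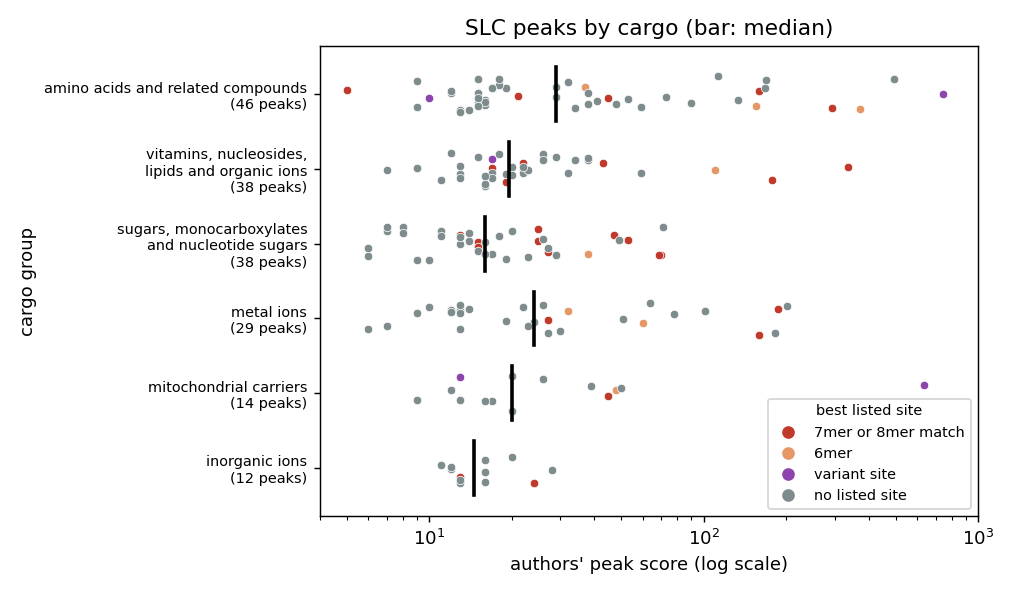
Scores of SLC peaks (x axis, log scale) by cargo group (y axis) for groups of at least 10 peaks, with each peak as a point coloured by its best listed site and the group median as a black bar. The median of the amino acid carriers was 29, or 17.5 without the 14 peaks of SLC38A2, and the sugar group reached 71 at most.

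**Figure D4:**
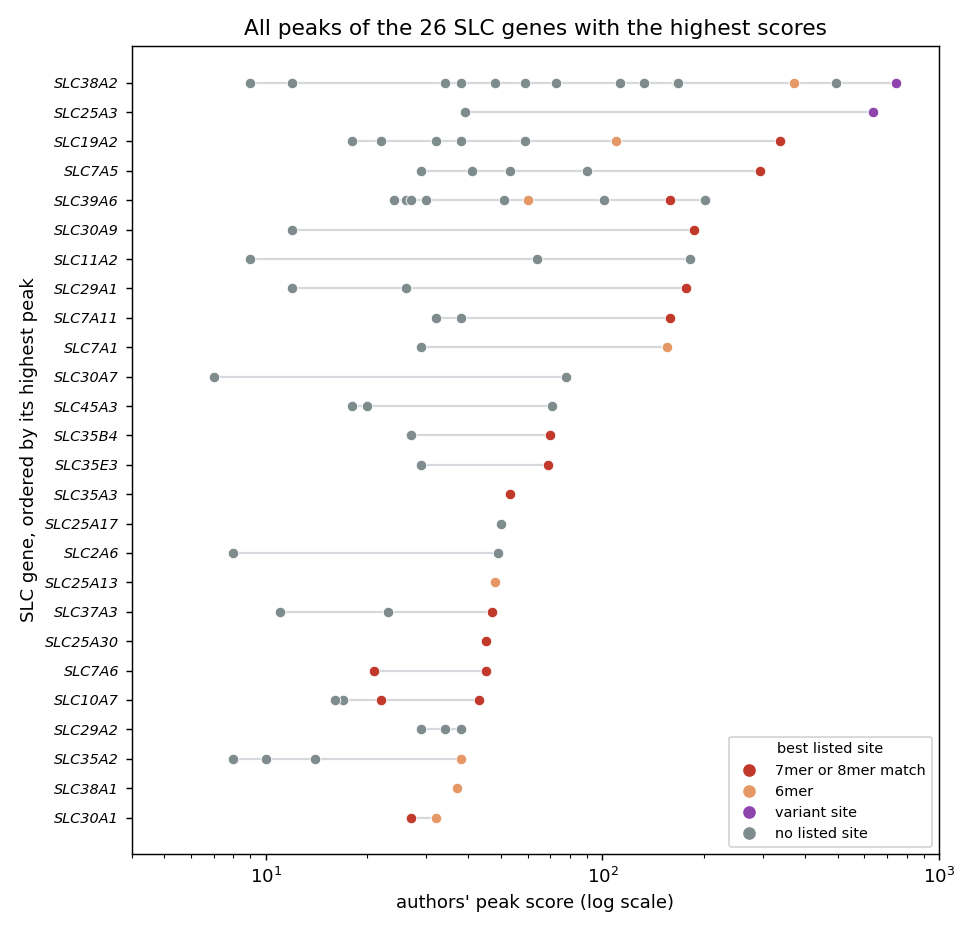
All peaks of the 26 SLC genes with the highest scores (y axis, ordered by the highest peak; x axis, the authors' score on a log scale), coloured by the best listed site. SLC38A2 (745) and SLC25A3 (636) lead with a variant site, followed by SLC19A2 (336) and SLC7A5 (293) with a match.

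Peaks with a match scored higher as a group. Their median was 27 (quartiles 21 and 69, 29 peaks), against 17 (13 and 32) for the 154 SLC peaks without one. Over all peaks the medians were 31 and 14. The size of the difference varied with the class. In SLC coding exons the medians were 45 with a match (9 peaks) and 17 without (33 peaks). In SLC 3' UTRs they were 27 (15 peaks) and 23.5 (64 peaks), whereas all 3' UTR peaks had 38.5 and 15. Peaks with a match were also longer, with medians of 88 and 71.5 nt. With scores adjusted for peak length the ratio of the medians with and without a match was 1.54, against 1.59 unadjusted.

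Within a gene the match usually sat in the highest peak. Both kinds of peak were present in 18 SLC genes, and the highest peak with a match exceeded the highest without one in 14 of them (77.8%), against 75.1% of the 550 such genes in the table. As a ratio the distance was widest in SLC30A9 (187 against 12) and SLC29A1 (177 against 26). The 4 exceptions were SLC39A6 (159 against 201), SLC30A1 (27 against 32), SLC38A10 (5 against 16) and SLC45A4 (13 against 16). The share for SLC genes was thus near that of all genes.

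**Figure D5:**
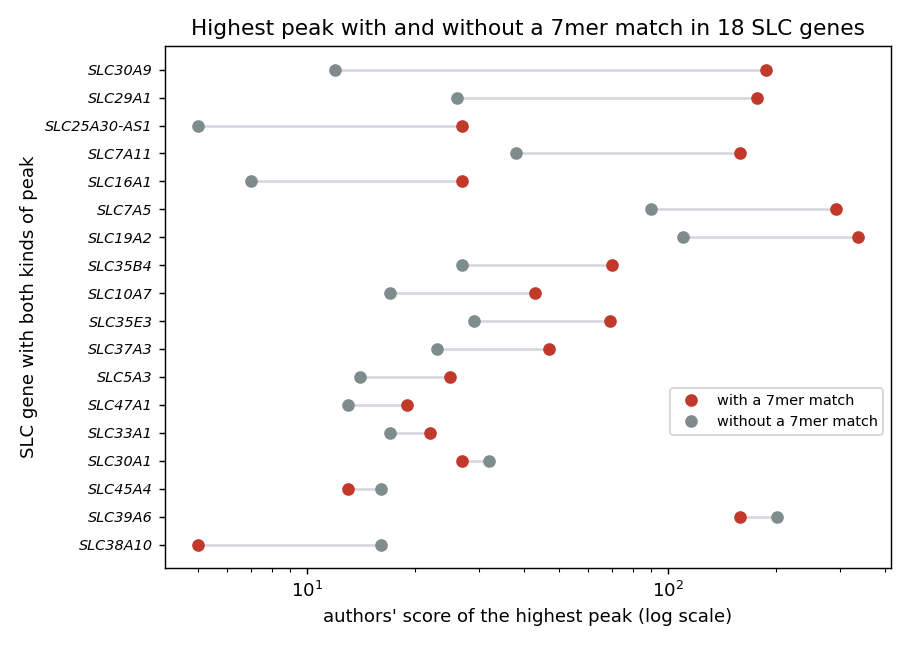
Highest peak with (red) and without (grey) a listed 7mer match in the 18 SLC genes that have both kinds (x axis, the authors' score on a log scale; y axis, genes ordered by the ratio of both). The red point is to the right in 14 genes and to the left in SLC30A1, SLC45A4, SLC39A6 and SLC38A10.

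The variant sites of the 2 highest SLC peaks had the same change. With positions counted from 1 at the first base of CTGTTACA, the 8mer, 4 of the 7 variant sites in SLC peaks carried T2A, in SLC38A2 (745), SLC25A3 (636), SLC33A1 (17, together with C1A) and SLC13A3 (9). The others carried T2G in SLC7A11, T2C with A8T in SLC25A4 and T4C in SLC6A8. In the whole table T2A made up 125 of 231 variant sites (54.1%). The variant sites of SLC38A2 and SLC25A3 had no other difference from the 8mer, and so had that of SLC13A3, at the other end of the score range.

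The listed sites could be found again in transcripts. Outside chromosome 8, which was left out, 41 of 45 listed sites occurred once in a GENCODE transcript of their gene, 33 of them in the transcript of the same RefSeq accession. Those of the 3' UTR class lay in 3' UTRs (22 of 22 found), and 14 of 15 coding exon sites lay in coding sequence. The sites at the ends of SLC7A5 and SLC30A1, and that of the non-coding class in SLC25A13, lay in 3' UTRs. The intron-class site of SLC10A7 (score 17) lay in the 3' UTR of another transcript of the gene, at base 884 of 1072. For the coding-class site of SLC25A30 (exon 8 of 10), counted among the 41, the bases were found in a 5' UTR. That transcript was matched by symbol, not by accession. The minus-strand SLC25A30-AS1 peak listed the same bases, so the place found may be that of its site and not of the exon 8 site. For all 9 pairs of sites in 1 transcript region the spacing in the transcript equalled that from the peak positions.

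Many SLC genes with a seed match in the 3' UTR had no peak. RefSeq lists 386 coding genes with an SLC name, of which 82 had a peak deposited under an SLC name. Genes deposited under an older name of another kind are counted here as without a peak. With members taken by current symbol there were 92 names with 198 peaks, against 84 names with 183 peaks. For 364 of the 386 a GENCODE 3' UTR was read, the longest of each gene. It held a 7mer in 76 genes, and 29 of these had a peak (38.2%) and 17 a peak with a match (22.4%). Of the 288 genes without a 7mer, 52 had a peak (18.1%) and 7 a peak with a match (2.43%). The match lay in a 3' UTR or transcript-end peak in 14 of the 76 genes and in 1 of the 288. A gene whose longest 3' UTR holds no 7mer can hardly list a match there. The shares with a match were thus partly fixed in advance, and nothing is read from their contrast. The genes with a 7mer had longer 3' UTRs, with medians of 2664 and 1448 nt. The part of length in the difference in genes with a peak was not tested. Lack of a peak does not show lack of expression, and the longest 3' UTR need not be the one used in 22RV1.

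The same counts were made for other transporter families. The ABC family, many but not all of whose proteins use ATP to pump substrates, had 23 peaks in 12 of 46 genes. Their median score was 15, and 0 of the 23 had a match. For a count of 0 an approximate upper limit was used in place of the exact interval, here 13.0%. That limit lies too near the 13.4% of all peaks for the ABC share to be read as lower. ABCD3 (71) and ABCF3 (30) led, both without a site. P-type and V-type ATPases, the ion pumps and proton pumps, had 42 peaks in 18 of 65 genes, of which 7 had a match (16.7%). ATP13A3 (846, a variant) led. Carriers related to SLC proteins under other names had 38 peaks in 21 of 70 genes, and 5 had a match (13.2%). LETM1 and NIPA1 reached 67 each, with a 7mer-A1 in NIPA1. Among 37 partners and regulators of nutrient transport 16 genes had 52 peaks, 5 of them with a match (9.62%). The transferrin receptor gene TFRC (255, a 6mer) and EIF2AK4, the amino acid sensor GCN2 (198, no site), led. The shares of these lists stand beside 13.4% for all peaks, and none was tested against it.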

How the data were processed

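AGO2 HITS-CLIP peaks were taken from the authors' deposited table for the 6 libraries. Per the submitters' processing notes the build was hg19 and the tools were MACS2, SAMtools, TopHat2 2.0.9, FastQC and cutadapt 1.8.1, with neither order nor settings. The deposited score is the authors' whole number per peak, and no source used here says which libraries were pooled for it. Scores were compared only inside the list. The table held 0 columns from other samples. Depth is unknown.

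Gene names were stripped of spaces. Sites were sorted into classes from the bases listed, and a peak took its best site on its own strand. Gene strand, UTRs and site windows came from GENCODE 29 (GRCh38), matched by name, accession or bases, and no coordinate was carried between builds. Current symbols came from RefSeq. Shares have exact Clopper-Pearson 95% intervals, and a count of 0 was given the limit of 3 counts. Medians have distribution-free 95% intervals from ranks. No significance test was run, because no value belongs to a library. Site classing and intervals were tested on simulated data. Computations ran in scipy 1.17.1, pandas 2.3.3 and numpy 2.4.6 under Python 3.11.15.

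The members and gene lists were chosen with earlier results of these data known. Named genes were those with the 15 highest scores, the 15 highest with a match, at least 4 peaks, the top of each subfamily of 3 or more genes, or given leading genes, and the top 2 of each other list. A tie at 27 for the last places was kept whole. Genes outside this rule were named after their values were seen, as examples of a class or cargo group. A few items that these rules would name are not reported here.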

Additional observations from a re-analysis of the deposited data

How the results depend on the processing

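The share of SLC peaks with a match stayed within its 95% interval in 9 of 13 alternatives. It was 4.37% with 8mers alone, 23.5% with any listed site, 25.0% with only the highest peak of each gene (20.2% over all genes) and 22.0% for blocks of peaks (16.2% over all). The share of SLC genes stayed within its interval in 8 of 9 and was 9.52% with 8mers alone. The median score stayed within its interval (16 to 22) in 8 of 10 and was 28 among peaks above the median of all peaks and 27 in 3' UTRs, both of which select by score or class. The ratio of median scores with and without a match, 1.59, ran from 1.15 in 3' UTRs to 2.65 in coding exons, and was also 2.65 with only the highest peak of each gene. Leaving out SLC38A2, the gene with the most peaks, gave a share of 17.2% and a ratio of 1.69, and adjusting scores for peak length gave a ratio of 1.54. Leaving out opposite-strand peaks or names that are not transporters, counting blocks, and describing the amino acid carriers without SLC38A2 were chosen after seeing the data. No paired analysis was possible because the table has no value per library, and for the same reason no library could be left out. With 29 matched peaks, shares per subfamily rest on few peaks.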

Other observations

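Of the 47 SLC genes with a 7mer in the longest GENCODE 3' UTR and no peak, 12 had an 8mer there. They were 12 of the 21 genes with such an 8mer, while 283 of all 364 genes read had no peak. Among the 12 were the glutamate transporters SLC1A2 and SLC1A3 and the mitochondrial carriers SLC25A24 and SLC25A27. Of the 9 genes with an 8mer and a peak, 8 had a match in a peak. In 7 of these a match lay in a 3' UTR or transcript-end peak, whereas in SLC37A3 it lay only in a coding peak. The gene without any match in a peak was SLC30A7, whose 3' UTR of 6580 nt holds 2 7mers. These genes were named after their values were seen, and whether those without a peak are transcribed in 22RV1 cannot be read from this table.

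The table listed 2 sites on the opposite strand in SLC peaks, 1 in the 3' UTR peak of SLC38A1 and 1 in the SLC38A2 peak scoring 133, and neither was a 7mer match. For the SLC7A11 peak with 3 listed sites it gave 2 distances from the peak centre. The 29 matched sites whose distance could be read lay at a median of 16 nt from the centre (quartiles 9 and 24), against 11 nt over all peaks (5 and 22).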
